A study of Homo sapiens with 6 samples.

Results

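The 10 genes described here are targets and regulators of the transcription factor NF-kappaB, 4 of them CXC chemokines. They were taken by gene symbol from a table of 58938 entries, and all 10 symbols were found there. The cells were HCT116, an established human colorectal cancer line. In 3 libraries, here called MST3, the cells had received a plasmid that overexpresses MST3, a protein kinase encoded by STK24, and in the other 3, here called vector, cells of wild-type genotype had received a vector. Per the labels' protocols, cells at 60% density were lipofected with the plasmid, got new medium 6 hours later and were lysed for RNA at 30 hours, counted from a step the labels do not name. The labels name neither the promoter of the plasmid nor the share of cells that took it up. Both groups were transfected and no untransfected cells are among the samples, so what transfection itself does to these genes was not measured. Whether replicates came from separate cultures is not stated either, so each p-value reflects the spread among these 6 libraries, and that spread may be technical.

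NF-kappaB proteins are dimers that rest in the cytoplasm, bound by IkappaB proteins. A signal from a receptor of TNF, interleukin-1 or a microbial molecule activates IkappaB kinase, the inhibitor is degraded, and the dimers enter the nucleus and bind kappaB sites in promoters. Among their targets are the chemokines that attract neutrophils and the inhibitors that end the response. In a slower, noncanonical arm of the pathway, the NFKB2 precursor is processed and pairs with RELB. Epithelial and colorectal cancer cells can themselves release CXC chemokines, and plasmid transfection can trigger the pathway. The comparison asks whether the transcripts of this pathway differed when the plasmid carried MST3.

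The genes fall into 4 groups by role. CXCL1, CXCL2, CXCL3 and CXCL8 (interleukin-8) are secreted ligands of the receptor CXCR2, and CXCL8 also binds CXCR1. NFKBIA (IkappaB-alpha) and TNFAIP3 (the ubiquitin-editing enzyme A20) are feedback inhibitors. NFKB2 and RELB are the subunits of the noncanonical arm, and BIRC3 (cIAP2) is a ubiquitin ligase that acts in both arms. ICAM1 is a cell adhesion molecule that binds leukocyte integrins.

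Sites of the kappaB type mark the promoters of many NF-kappaB targets. The genes were chosen as such targets, so motif counts among them describe these promoters and are no independent finding. RefSeq promoters (GRCh38.p14, 300 bases, of which 250 lie before and 50 after the transcript start) were found for 9 of the 10 genes. RELB had no entry. They were searched for the 9-letter core GGAANTTCC, which reads the same on both strands, and for the degenerate kappaB consensus of NF-kappaB dimers on both strands. Matches to both motifs can overlap. A gene was counted if any of its promoter entries held the motif (11 entries for the 9 genes). The core was found for 6 of the 9 genes, against 1.16% of the 27305 genes in the table. The consensus was found for 7 of the 9, against 13.25% of all genes, and all 9 had at least one of the motifs, against 13.8%. Counted by entry, 0.97% of the 35116 promoters held the core and 11.3% the consensus. A match is a string of letters and was not shown to be bound in these cells.

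The following stretches show how alike the 3 GRO chemokine promoters are around the motif and how CXCL8, the inhibitors and ICAM1 differ from them. Each is printed in the direction of the gene, with the matched bases in capitals.
CXCL1, chr4:73869269-73869369, plus strand: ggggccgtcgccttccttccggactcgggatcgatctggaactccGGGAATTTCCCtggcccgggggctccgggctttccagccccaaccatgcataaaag
CXCL2, chr4:74099218-74099318, minus strand: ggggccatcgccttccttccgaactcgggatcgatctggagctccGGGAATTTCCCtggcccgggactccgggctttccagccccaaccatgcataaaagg
CXCL3, chr4:74038713-74038813, minus strand: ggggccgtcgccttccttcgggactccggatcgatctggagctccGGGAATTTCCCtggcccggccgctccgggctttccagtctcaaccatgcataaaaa
CXCL8, chr4:73740433-73740531, plus strand: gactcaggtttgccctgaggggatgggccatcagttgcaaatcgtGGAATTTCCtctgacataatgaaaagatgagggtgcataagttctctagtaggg
NFKBIA, chr14:35404776-35404875, minus strand: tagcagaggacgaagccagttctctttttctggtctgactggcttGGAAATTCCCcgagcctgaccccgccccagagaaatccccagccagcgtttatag
TNFAIP3, chr6:137867147-137867258, plus strand: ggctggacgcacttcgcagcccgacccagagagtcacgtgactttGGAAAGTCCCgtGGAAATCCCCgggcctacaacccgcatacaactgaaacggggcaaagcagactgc
ICAM1, chr19:10270889-10270987, plus strand: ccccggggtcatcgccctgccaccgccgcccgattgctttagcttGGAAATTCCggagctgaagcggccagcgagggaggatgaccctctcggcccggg

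In CXCL1, CXCL2 and CXCL3 the same 11 letters began 79, 78 and 79 bases before the transcript start, with matches on both strands that overlap. CXCL8 held the core 91 bases before its start and no consensus match. NFKBIA held 1 overlapping pair of matches 81 bases before its start. TNFAIP3 held no core but 2 consensus matches side by side, the first 67 bases before its start, and ICAM1 held the core 186 bases before its start. BIRC3 (2 consensus matches) and NFKB2 (3 promoter entries, 1 of them with no match) are not printed, since their matches lie farther apart.

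CXCL1, CXCL2 and CXCL3 (the GRO chemokines) are close duplicates, which bears on how reads were assigned to them. In GENCODE 29 their coding sequences are all 324 bases long. CXCL2 and CXCL3 were identical at 94.4% of aligned bases, CXCL1 and CXCL2 at 93.5%, and CXCL1 and CXCL3 at 90.7%. CXCL8 was identical to each of the 3 at 52.5 to 54.1%. The longest run shared by the coding sequences of CXCL2 and CXCL3 (chromosome 4) has 97 bases and is shown because a read inside it could come from either gene:
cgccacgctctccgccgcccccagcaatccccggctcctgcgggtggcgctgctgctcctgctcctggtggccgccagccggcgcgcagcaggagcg
No stretch of 100 bases was shared by the longest protein-coding transcripts of any pair of the 4 genes. Neither the read length nor the treatment of reads with several positions is stated. The split of reads among CXCL1, CXCL2 and CXCL3, and their total, are therefore uncertain.

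Levels are given in FPKM, which divides the fragments of a gene by its length and by a scaling factor of the library. From the steps in these values the reads behind them were recovered, 15289213 to 17209736 per MST3 library and 17296201 to 17708029 per vector library. MST3 replicate 1 stood apart, with the fewest reads and reads on 27442 genes, against 25099 to 25501 genes in the other 5 libraries. STK24 averaged 70.7 ± 6.3 FPKM in MST3 libraries and 17.3 ± 0.161 FPKM in vector libraries (SD, n = 3 each; adjusted p = 0.000998 by limma), the direction that the labels give. Of 6 epithelial markers 5 reached a mean of 1 FPKM, summing to 1528 to 1935 FPKM in MST3 and 1611 to 1661 FPKM in vector libraries, and VIL1 did not, at most 0.0331 FPKM. None of 6 leukocyte markers reached it, with sums of 0.459 to 0.585 FPKM in MST3 and 0.155 to 0.825 FPKM in vector libraries. Among 6 fibroblast and endothelial markers only COL1A1 reached it, at 4.35 FPKM in MST3 and 4.16 FPKM in vector libraries, and the summed levels were 4.15 to 5.25 FPKM in MST3 and 3.97 to 4.8 FPKM in vector libraries.

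In these cells the NF-kappaB genes were expressed over a wide range, and none was shown to differ between MST3 and vector. The most abundant was NFKB2, with a mean of 43.4 FPKM over the 6 libraries, higher than 96.1% of protein-coding genes in the table. NFKBIA followed at 8.54 FPKM, then CXCL8 at 6 FPKM and RELB at 5.8 FPKM, whose ranges over the libraries overlapped. ICAM1 (2.4 FPKM) and TNFAIP3 (1.92 FPKM) came next, again with overlapping ranges. BIRC3 (1.2 FPKM), CXCL1 (0.931 FPKM), CXCL2 (0.413 FPKM) and CXCL3 (0.39 FPKM) closed the order, each overlapping its neighbour. The last place of CXCL3 depends on the gene length used, 2219 bases against 1500 for CXCL2. In reads over the 6 libraries CXCL3 lay above CXCL2, with 88 against 64. The ranges over the libraries did not overlap between NFKB2 and NFKBIA, NFKBIA and CXCL8, RELB and ICAM1, or TNFAIP3 and BIRC3. In bulk RNA, fewer cells that express a gene and less RNA per cell cannot be told apart.

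**Figure D1:**
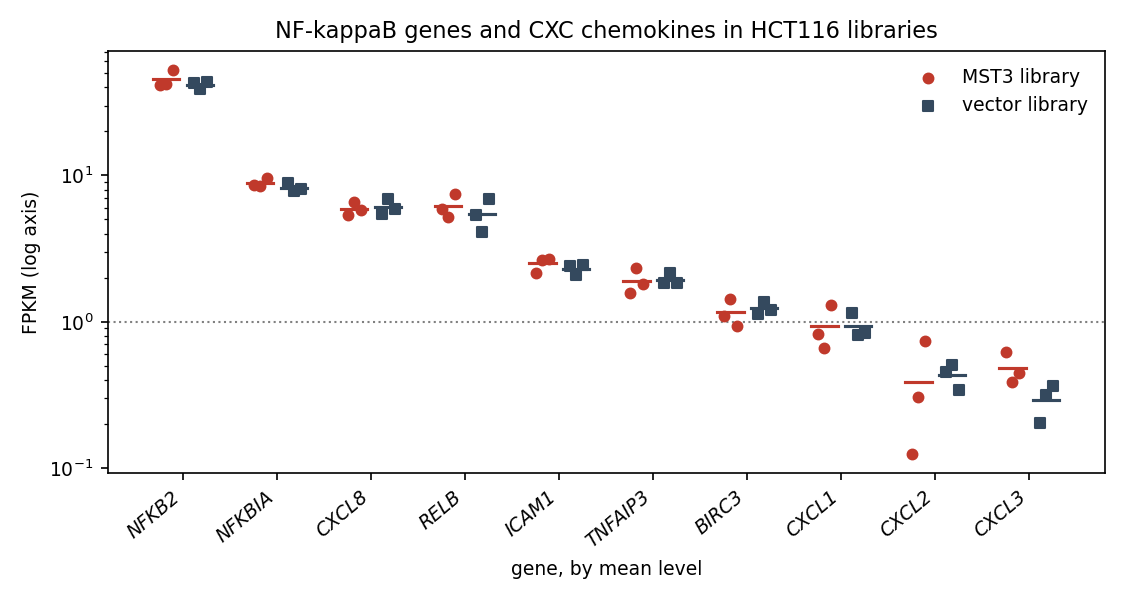
FPKM (log axis) of the 10 genes, ordered by mean level, with 1 point per library, a bar at the mean of each group, MST3 libraries as red circles and vector libraries as dark squares; the dotted line marks 1 FPKM. NFKB2 lies near 43.4 FPKM and the 3 GRO chemokines lie around or below the dotted line, and CXCL3 is the gene whose groups do not overlap.

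The tests were run on log2(FPKM + 1) with limma on the 13036 genes that averaged 1 FPKM or more, and p-values were adjusted over all of them. Of the 10 genes, 7 passed this filter and CXCL1, CXCL2 and CXCL3 did not. None of the 7 was called at an adjusted p under 0.05, where 0.00767% of all tested genes were called, STK24 alone. None of the 7 had an unadjusted p under 0.05 either, against 5.38% of all tested genes. On this scale 4 of the 7 lay higher in MST3 and 3 lower, against 46.6% of all tested genes higher. Their median difference was 0.08, where the median of all tested genes was -0.01. The smallest unadjusted p by limma among the 7 was 0.311, for NFKBIA. To include the 3 low chemokines, and to give ratios not compressed by the added 1, limma voom was also run on the recovered reads of the 23420 genes that averaged 0.1 FPKM or more, an analysis added after the values were seen. It called 0 of the 10 genes, where it called 0.00854% of all genes, and 0 of the 10 had an unadjusted p under 0.05. Voom scaled each library by its sum of recovered reads, not by the scaling factor of the deposited FPKM. For MST3 replicate 1 these were 15289213 and 15950197 reads, so voom and limma differences also differ in library scaling. Without MST3 replicate 1, limma again called none of the 7, and their log2 differences ran from -0.04 (BIRC3) to 0.20 (RELB).

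CXCL8, the chemokine with the highest level of the 4, had 5.35, 6.61 and 5.77 FPKM in MST3 replicates 1 to 3, against 5.43, 6.93 and 5.9 FPKM in vector replicates 1 to 3. The groups overlapped, and replicate 2 was the high library in both. Its means were 5.91 ± 0.64 FPKM in MST3 and 6.08 ± 0.766 FPKM in vector libraries (SD, n = 3 each), from 194 to 270 reads per library. The log2 difference was -0.03 (SE 0.11, 95% interval -0.29 to 0.22, adjusted p = 0.93 by limma). By voom the ratio of MST3 to vector was 0.997, with a 95% interval of 0.795 to 1.25. The sign of the difference turned without MST3 replicate 1 and without vector replicate 2, so no direction can be given for CXCL8.

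CXCL1 had 0.822, 0.666 and 1.31 FPKM in MST3 libraries, against 1.14, 0.81 and 0.84 FPKM in vector libraries. The groups overlapped, with the highest and the lowest value both in MST3 libraries. These rest on 15 to 29 reads per library. The sums over the 3 libraries were 61 reads in MST3 (exact Poisson 95% interval 46.7 to 78.4) and 63 reads in vector (48.4 to 80.6), intervals that cover counting error only. The voom ratio was 0.998, with an interval of 0.563 to 1.77.

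CXCL2 had 0.125, 0.307 and 0.739 FPKM in MST3 libraries, against 0.455, 0.506 and 0.344 FPKM in vector libraries. The MST3 values spanned both sides of the vector range. They come from 3, 8 and 19 reads in MST3 and 12, 13 and 9 reads in vector libraries. The counting interval of the 3 reads in MST3 replicate 1 (0.619 to 8.77) does not reach that of the 19 reads in MST3 replicate 3 (11.4 to 29.7). These are the lowest and the highest of the 3 libraries, set side by side after their values were seen, and the intervals cover counting error only. The coefficient of variation was 80.7% in MST3 and 19% in vector libraries. The voom ratio was 0.772 with a wide interval, 0.331 to 1.81 (adjusted p = 0.896), where the ratio of mean FPKM was 0.898.

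CXCL3 had 0.622, 0.389 and 0.447 FPKM in MST3 libraries, against 0.205, 0.316 and 0.361 FPKM in vector libraries. Every MST3 value lay above every vector value, and CXCL3 was the only 1 of the 10 genes whose groups did not overlap, against 11.2% of the 23420 genes that averaged 0.1 FPKM or more. The means were 0.486 ± 0.121 FPKM in MST3 and 0.294 ± 0.0804 FPKM in vector libraries (SD, n = 3 each), a ratio of 1.65. MST3 replicate 1 held the highest value, and the values of MST3 replicates 2 and 3 also lay above the vector range. The margin was narrow, with 15 reads behind the lowest MST3 value (replicate 2) and 14 behind the highest vector value (replicate 3). The sums were 54 reads in MST3 (exact Poisson 95% interval 40.6 to 70.5) and 34 reads in vector libraries (23.6 to 47.5), and these intervals overlap. By voom the ratio was 1.66 with an interval of 0.861 to 3.21 and an adjusted p = 0.773. CXCL3 rests on 8 to 22 reads per library, and a difference between the groups was not shown.

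The 4 chemokine genes lie in 1 cluster on chromosome 4 (GRCh38), from CXCL8 (73740506 to 73743716, plus strand) through CXCL1 (73869393 to 73871242, plus strand) and CXCL3 (74036589 to 74038807, minus strand) to CXCL2 (74097035 to 74099293, minus strand). The table holds 9 protein-coding genes over these 358788 bases. The other 5, CXCL6, PF4V1, PF4, PPBP and CXCL5, had no read in any library. Summed over the 4 chemokines, the level was 6.92, 7.97 and 8.26 FPKM in MST3 libraries, against 7.23, 8.56 and 7.44 FPKM in vector libraries. CXCL8 made up 69.9 to 82.9% of that sum in MST3 and 75.1 to 80.9% in vector libraries. In the deposited FPKM CXCL8 was thus the main part of the cluster in both groups, with sums that overlap. How reads shared by the GRO chemokines were treated is not stated, so their part of the sum is uncertain.

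**Figure D2:**
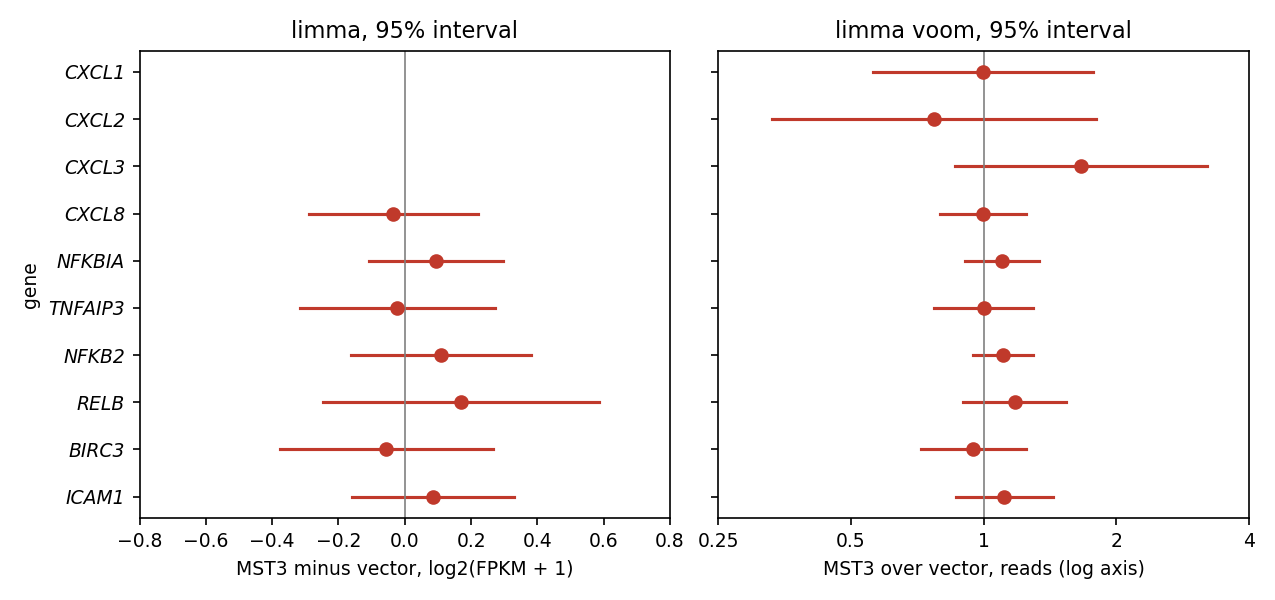
Left, difference of MST3 minus vector on the log2(FPKM + 1) scale with its 95% interval by limma for the 7 genes that averaged 1 FPKM or more; right, ratio of MST3 to vector from recovered reads with its 95% interval by limma voom for all 10 genes (log axis). Every interval includes no difference, and the intervals of CXCL1, CXCL2 and CXCL3 are the widest.

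The feedback inhibitors are usually among the quickest transcripts to follow NF-kappaB activity. NFKBIA (ENSG00000100906; chromosome 14, 35401511 to 35404749, minus strand) had 8.53, 8.44 and 9.56 FPKM in MST3 libraries, against 8.89, 7.77 and 8.02 FPKM in vector libraries. Vector replicate 1 lay above MST3 replicates 1 and 2, so the groups overlapped. The means were 8.85 ± 0.623 FPKM in MST3 and 8.23 ± 0.592 FPKM in vector libraries (SD, n = 3 each). The coefficients of variation, 7.05% in MST3 and 7.19% in vector libraries, made NFKBIA one of the steadiest of the 10 genes. Between the groups the log2 difference was 0.09 (95% interval -0.11 to 0.30, adjusted p = 0.752 by limma), and the log2 difference ranged from 0.04 (without MST3 replicate 3) to 0.15 (without vector replicate 1) as single libraries were left out. The voom ratio was 1.1 with an interval of 0.906 to 1.34.

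TNFAIP3 (ENSG00000118503; chromosome 6, 137867188 to 137883312, plus strand) had 1.58, 2.32 and 1.83 FPKM in MST3 libraries, against 1.84, 2.15 and 1.84 FPKM in vector libraries. The lowest and the highest value were both in MST3 libraries. Its log2 difference was -0.02 (95% interval -0.32 to 0.27, adjusted p = 0.964 by limma), and the voom ratio was 1 with an interval of 0.772 to 1.3. The sign turned by voom and without MST3 replicate 1 or vector replicate 2. An antisense gene, AL357060.1, overlaps TNFAIP3 and had at most 14 reads in a library, against 127 to 204 for TNFAIP3, and with no strand setting given the reads of these genes cannot be told apart.

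On the log2(FPKM + 1) scale RELB and NFKB2, the noncanonical subunits, had the largest positive differences among the 7 tested genes, and neither passed the test. The place of NFKB2 depended on that scale. ICAM1 lay above it by voom (log2 0.157 against 0.145) and with 0.1 added in place of 1 (0.115 against 0.111). NFKB2 (ENSG00000077150; chromosome 10, 102394110 to 102402529, plus strand) had 41.2, 41.8 and 52.5 FPKM in MST3 libraries, against 42.5, 38.8 and 43.5 FPKM in vector libraries. Only MST3 replicate 3 lay outside and above the vector range. The means were 45.2 ± 6.34 FPKM in MST3 and 41.6 ± 2.49 FPKM in vector libraries (SD, n = 3 each), from 2948 to 4033 reads per library. The log2 difference was 0.11 (95% interval -0.16 to 0.38, adjusted p = 0.777 by limma). It was -0.00 without MST3 replicate 3, so its sign rested on that library. The voom ratio was 1.11 with an interval of 0.945 to 1.29, the narrowest of the 10 genes.

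RELB (ENSG00000104856; chromosome 19, 45001430 to 45038198, plus strand) had 5.87, 5.23 and 7.42 FPKM in MST3 libraries, against 5.32, 4.09 and 6.87 FPKM in vector libraries. Replicate 3 was the highest and replicate 2 the lowest in both groups, and the groups overlapped. The means were 6.17 ± 1.12 FPKM in MST3 and 5.43 ± 1.39 FPKM in vector libraries (SD, n = 3 each). The log2 difference was 0.17 (SE 0.18, 95% interval -0.25 to 0.59, adjusted p = 0.774 by limma). The log2 difference ranged from 0.01 (without vector replicate 2) to 0.33 (without vector replicate 3) as single libraries were left out.

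BIRC3 (ENSG00000023445; chromosome 11, 102317450 to 102339403, plus strand) had 1.1, 1.43 and 0.939 FPKM in MST3 libraries, against 1.14, 1.37 and 1.2 FPKM in vector libraries. The MST3 values lay on both sides of the vector range. On the log2 scale the difference was -0.06 (95% interval -0.38 to 0.27, adjusted p = 0.91 by limma), and it turned to 0.02 without MST3 replicate 3. The voom ratio was 0.948 with an interval of 0.72 to 1.25.

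ICAM1 (ENSG00000090339; chromosome 19, 10270835 to 10286615, plus strand) had 2.17, 2.66 and 2.69 FPKM in MST3 libraries, against 2.39, 2.08 and 2.43 FPKM in vector libraries. Of the MST3 libraries, replicates 2 and 3 lay above the vector range and replicate 1 lay within it. The log2 difference was 0.08 (95% interval -0.16 to 0.33, adjusted p = 0.806 by limma), and the log2 difference ranged from 0.04 (without vector replicate 2) to 0.16 (without MST3 replicate 1) as single libraries were left out. The voom ratio was 1.12 with an interval of 0.865 to 1.44. The antisense genes AC011511.2 and AC011511.5 overlap ICAM1 and had at most 3 reads each in a library.

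Within the groups, the genes varied in distinct ways. CXCL8, TNFAIP3 and BIRC3 were highest in replicate 2 of MST3 and in replicate 2 of vector, while NFKB2, RELB and ICAM1 were highest in replicate 3 of both. For ICAM1 this was nearly a tie, with 171 reads in both MST3 replicates 2 and 3, and 156 and 157 reads in vector replicates 1 and 3. In all, 6 of the 7 tested genes, ICAM1 included, were highest at the same replicate number in both groups, and NFKBIA was not. Among all 13036 tested genes 46.7% did so. For CXCL1, CXCL2 and CXCL3 the number of the highest library differed between the groups. Replicates of a group have no order, and a shared number was not shown to pair libraries over all genes.

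**Figure D3:**
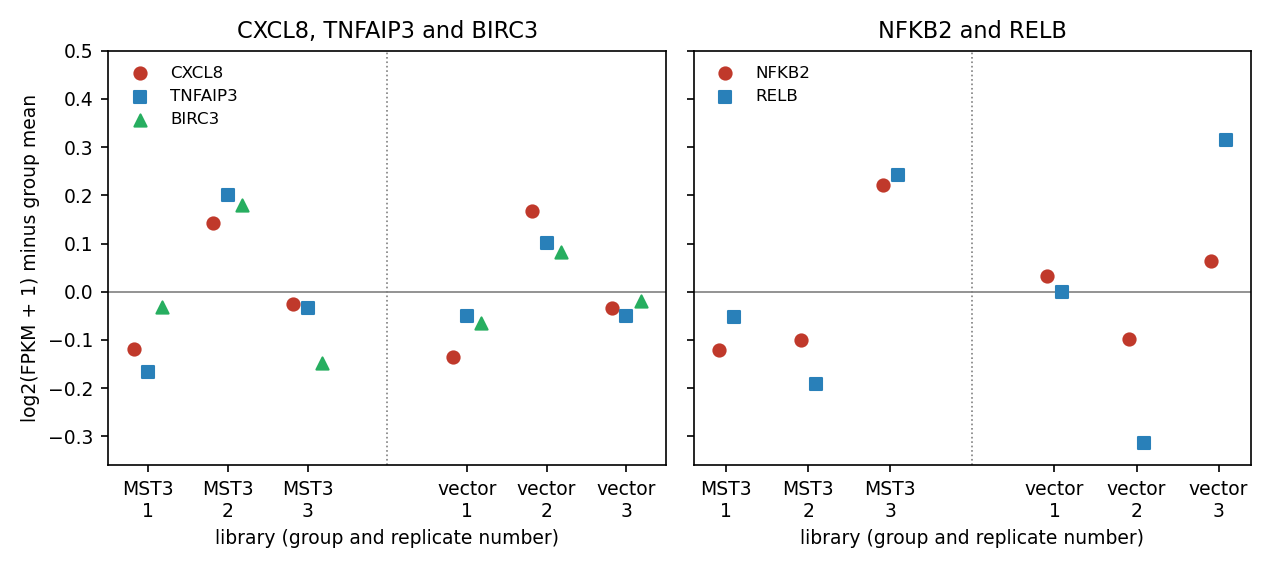
Deviation of log2(FPKM + 1) from the mean of the group in each library, for CXCL8, TNFAIP3 and BIRC3 (left) and NFKB2 and RELB (right), with the 3 MST3 libraries left of the 3 vector libraries. CXCL8, TNFAIP3 and BIRC3 lie highest in replicate 2 of both groups and NFKB2 and RELB in replicate 3 of both. Not plotted are ICAM1, nearly tied, and NFKBIA, CXCL1, CXCL2 and CXCL3, whose highest libraries had different numbers in the groups.

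The genes whose values over the 6 libraries lay closest to those of CXCL8 were NIPA2, SKP2, DCAF5, LIN54 and HCP5. Likeness was the root mean square distance between log2(FPKM + 1) values, each centred on the mean of the 6 libraries. It was 0.0241 for NIPA2 and 0.0299 for HCP5, against a median of 0.166 over 12931 other genes. Of the tested genes described here, TNFAIP3 was nearest to CXCL8, at 0.0547, then BIRC3 at 0.0782. ICAM1 at 0.158, NFKBIA at 0.183, NFKB2 at 0.207 and RELB, the farthest at 0.321, lay beyond 0.118. That is the distance of a gene with equal values in all 6 libraries.

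The rest of the pathway was read from 8 further lists, which together hold 132 genes, 69 of them tested. Of these 35 lay higher and 34 lower in MST3, or 50.7% higher, against 46.6% of all tested genes, and none was called by limma over all genes. An unadjusted p under 0.05 was found for 4 of the 69, or 5.8%, against 5.38% of all tested genes. The groups did not overlap for 5 of the 69 (NFKBID, IRAK4, IL17RC, IL1R1 and ISG15), or 7.25%, against 11.9% of all tested genes. The genes given with values were taken mainly for the smallest p of each list, up to 3 per list, and do not stand for the rest of it. The median log2 difference of the 69 was 0.01, where the median of all tested genes was -0.01. The other NF-kappaB subunits were all tested and none was called. RELA, the main activating subunit, had 20.3, 22.3 and 25.9 FPKM in MST3 libraries, against 23.9, 22 and 22.6 FPKM in vector libraries, a log2 difference of -0.00. NFKB1 averaged 5.52 and REL 1.21 FPKM in MST3 libraries, against 5.79 and 1.34 FPKM in vector libraries. Of the 5 subunit genes, NFKB2 and RELA had the highest FPKM in both groups.

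Other IkappaB proteins and feedback inhibitors had 9 of 11 genes tested, with 5 higher and 4 lower and a median of 0.12. NFKBID, a nuclear IkappaB protein, had 2.02, 1.51 and 1.92 FPKM in MST3 libraries, against 1.39, 1.17 and 1.17 FPKM in vector libraries, and its groups did not overlap. Its log2 difference was 0.33 with a 95% interval of 0.04 to 0.61, but with an adjusted p = 0.719 by limma it was not called. TNIP2, an A20-binding protein, averaged 16.3 ± 3.03 FPKM in MST3 and 12.7 ± 0.419 FPKM in vector libraries (SD, n = 3 each), with overlapping groups. NFKBIB, or IkappaB-beta, had 18.4, 14.8 and 20.3 FPKM in MST3 libraries, against 14.6, 12.6 and 15.6 FPKM in vector libraries, and its interval of -0.01 to 0.61 includes 0.

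Of the IkappaB kinase complexes and their upstream signalling proteins, 22 of 24 genes were tested, 11 higher and 11 lower, with a median of -0.01 and none called. RBCK1, a subunit of the linear ubiquitin ligase, averaged 19 ± 3.22 FPKM in MST3 and 15.3 ± 1.12 FPKM in vector libraries. TAB2, an adaptor of the kinase TAK1, averaged 24.6 ± 3.81 FPKM in MST3 and 29 ± 3.66 FPKM in vector libraries (SD, n = 3 each). IRAK4, a kinase of the interleukin-1 and Toll-like receptors, had 1.91, 2.16 and 1.82 FPKM in MST3 libraries, against 2.16, 2.24 and 2.32 FPKM in vector libraries. Its groups did not overlap, and its log2 difference of -0.13 had an adjusted p = 0.724 by limma.

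Among receptors that signal to NF-kappaB 12 of 20 genes were tested, 7 higher and 5 lower, with a median of 0.02 and none called. TNFRSF12A, the receptor of the cytokine TWEAK, had 54.4, 32.4 and 55.6 FPKM in MST3 libraries, against 33.4, 27.9 and 34 FPKM in vector libraries. MST3 replicates 1 and 3 were high and replicate 2 lay within the vector range. Its log2 difference of 0.53 (95% interval 0.04 to 1.02) was the largest of the 69 tested pathway genes and had an adjusted p = 0.719 by limma. IL17RC, a subunit of the interleukin-17 receptor, averaged 3.96 FPKM in MST3 and 3.36 FPKM in vector libraries, and IL1R1, the interleukin-1 receptor, averaged 2.19 FPKM in MST3 and 2.51 FPKM in vector libraries, both with groups that did not overlap. TLR2 and TLR4 had no read in any library, and TLR9, the sensor of unmethylated DNA, reached at most 0.0162 FPKM.

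Cytokine ligands were mostly at low levels, with 2 of 19 genes tested and none called. LIF averaged 21.9 ± 1.92 FPKM in MST3 and 19.3 ± 1.97 FPKM in vector libraries, and IL18 averaged 17.4 ± 2.13 FPKM in MST3 and 19.1 ± 1.4 FPKM in vector libraries (SD, n = 3 each). IL6 and CCL2 had no read in any library, and TNF reached at most 0.103 FPKM. Of the other CXC chemokines and their receptors 2 of 17 genes were tested and 11 had no read. CXCL16, a membrane-bound chemokine, averaged 23.7 FPKM in MST3 and 24.6 FPKM in vector libraries, a level above that of CXCL8. CXCR4 had 2.09, 3.73 and 3.04 FPKM in MST3 libraries, against 3.81, 3.62 and 3.5 FPKM in vector libraries. CXCR1 and CXCR2, the receptors of the chemokines described here, reached at most 0.0915 and 0.217 FPKM.

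Other NF-kappaB target genes had 12 of 22 tested, 6 higher and 6 lower, with a median of 0.03 and none called. IER3, an early response gene, was by far the most abundant, with 618, 803 and 896 FPKM in MST3 libraries, against 919, 990 and 856 FPKM in vector libraries, and the groups overlapped. GADD45B averaged 10.5 FPKM in MST3 and 9.33 FPKM in vector libraries, and TNFAIP2 averaged 12.6 FPKM in MST3 and 10.5 FPKM in vector libraries. BCL2A1 and VCAM1 had no read.

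Cytosolic nucleic acid sensors and interferon response genes, which transfected DNA can engage, had 7 of 16 tested, 5 higher and 2 lower, with a median of 0.07 and none called. ISG15, an interferon-induced ubiquitin-like protein, had 123, 112 and 142 FPKM in MST3 libraries, against 108, 99.5 and 106 FPKM in vector libraries. Its groups did not overlap, and its log2 difference of 0.26 had an adjusted p = 0.719 by limma. IRF3, the transcription factor downstream of these sensors, averaged 12.9 FPKM in MST3 and 10.7 FPKM in vector libraries, and RIGI, a sensor of RNA, averaged 3.61 FPKM in MST3 and 3.81 FPKM in vector libraries. IFNB1 had no read in any library, CGAS, a sensor of DNA, reached at most 0.0277 FPKM and STING1, its adaptor, averaged 4.86 FPKM in MST3 and 4.54 FPKM in vector libraries.

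**Figure D4:**
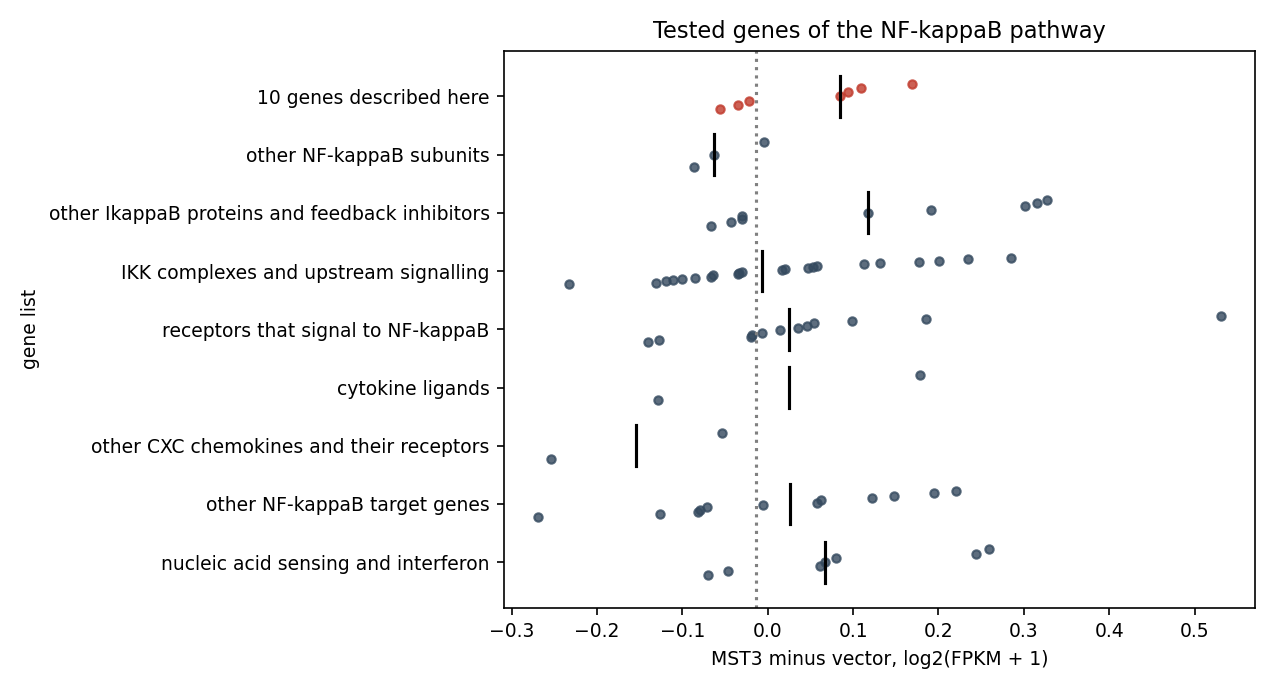
Difference of MST3 minus vector on the log2(FPKM + 1) scale for each tested gene of the 10 described here (red) and of 8 further pathway lists (dark), with a black bar at the median of each list and a dotted line at the median of all tested genes, -0.01. Points lie on both sides of 0 in most lists, and the farthest, at 0.53, is TNFRSF12A.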

How the data were processed

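RNA of 3 MST3 and 3 vector libraries of HCT116 cells was measured by RNA sequencing. The authors deposited 1 table of FPKM values with a column per library. HISAT2 is named per the submitters' processing notes, and nothing else of the pipeline (versions, counting, strandedness, build, annotation) is stated in the labels or the table. Coordinates of all 10 genes equal those of GENCODE 29 on GRCh38.

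Multiplied by gene length, 100% of the deposited FPKM values were whole multiples of 1 step per library (tolerance 0.01), which gave the reads behind them. Median-of-ratios factors were the same for all libraries, so the deposited values were already on that scale. Limma voom did not use that scale and took the sum of recovered reads as library size. The genome-wide test was limma (version 3.58.1, R 4.3.3) on log2(FPKM + 1), with eBayes and an intensity trend, two-sided, on the 13036 genes averaging 1 FPKM or more, with Benjamini-Hochberg adjustment over all of them. Limma voom on recovered reads, other filters (0.1, 5, none), a pseudocount of 0.1, other scalings and variance models, the replicate block and each library left out were alternatives. Counting intervals are exact Poisson at 95%. Plots used Python 3.11.15 and matplotlib 3.10.9.

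Genes named beyond the 10 were STK24, up to 3 genes per list with the smallest p, and the 5 nearest to CXCL8 in profile. AL357060.1, AC011511.2, AC011511.5, STING1, CGAS, the markers and genes at or near 0 were named after their values were seen. The 10 genes and the lists were chosen with earlier results of these data known.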

Additional observations from a re-analysis of the deposited data

How the results depend on the processing

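None of the 10 genes was called under any of the 17 alternatives that tested it, and no gene of the 8 further lists was. All 10 were tested only with a filter of 0.1 FPKM, by limma or voom, and with no filter. A filter of 5 FPKM tested 4 of them, and every other alternative tested 7, without CXCL1, CXCL2 and CXCL3. Over the alternatives, the smallest adjusted p of the genes tested ranged from 0.463 (without MST3 replicate 2) to 0.999 (without vector replicate 2), both by limma. Over all genes, 1 was called in each alternative but voom with a mean of at least 0.1 FPKM, an alternative chosen after seeing the data, which called 2. Of 125 recomputed differences of single genes, 8 turned their sign. Other filters, variance models and the replicate block cannot change a limma log2 difference, and the equal median-of-ratios factors hardly can. Such differences are among the 125 although their sign was fixed in advance, so the count does not measure stability. Leaving out 1 library at a time, the log2 difference ranged from -0.106 to 0.0493 for CXCL8, from -0.123 to 0.0614 for TNFAIP3, from -0.146 to 0.0175 for BIRC3 and from -0.0014 to 0.169 for NFKB2, and the cause was not tested. TNFAIP3 also turned by voom, to 0.0013 with a mean of at least 1 FPKM and to 0.0009 with a mean of at least 0.1 FPKM. The differences of NFKBIA, RELB and ICAM1 kept their sign under all alternatives that tested them, some of which could not change it. CXCL2 and CXCL3 moved by voom, to -0.37 and 0.73. The added 1 compresses low values and voom also scaled libraries in another way, and the part of each in these moves was not tested. Deviations from group means in same-numbered libraries had a Pearson's r of 0.016, 0.226 and 0.035 for numbers 1 to 3, across 13036 genes, which are not independent replicates. MST3 replicates 1 and 3 correlated better with another number, and the numbers were not used as pairs. With the replicate block 1 gene was called and none of the 7 tested here. With it 1338 genes had an unadjusted p under 0.05 by limma, against 701 without it. The smallest p of the 7 with the block was 0.0769 by limma, for RELB. The count under an unadjusted 0.05 was 298 (without vector replicate 2) to 2554 (without MST3 replicate 2) as single libraries were left out. Without MST3 replicate 1 it was 452. For CXCL1, CXCL2 and CXCL3, 3 to 29 reads per library limit the precision. Their voom intervals are not adjusted for the number of genes tested. A call over all genes therefore needs a larger difference than an interval that just excludes a ratio of 1.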
